A study of Mus musculus with 8 samples.

Results

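The 8 genes described here encode the repressor limb of the circadian clock: Per1, Per2, Per3, Cry1, Cry2, Bhlhe40, Bhlhe41 and Ciart. They were taken by gene symbol from the deposited count tables, where each symbol matched 1 row, so they are 8 of 41128 gene IDs. All 8 were among the 16551 genes that passed the low-count filter. RNA was sequenced from left ventricles of FVB mice aged 8 to 12 weeks. One group was homozygous for a CRISPR deletion of RE1, a regulatory element of the super enhancer at the Nppa-Nppb locus, and the other was their wild-type littermates, with 4 libraries in each. The sources used here give neither the coordinates of RE1, nor the number of founder lines, nor the hour of tissue collection. No label says outright that each library is a separate mouse, so p-values measure the spread between these libraries.

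The circadian clock is a feedback loop present in most cells, cardiomyocytes included. Pairs of the activators CLOCK or NPAS2 with BMAL1 (the product of Arntl) bind E-box sequences and switch on Per, Cry, Bhlhe40, Bhlhe41 and Ciart, whose products then block those activators. PER and CRY proteins act together as the main repressor complex, BHLHE40 and BHLHE41 (DEC1 and DEC2) compete for E-boxes, and CIART (CHRONO) binds BMAL1. A second loop runs through the nuclear receptors REV-ERB (Nr1d1, Nr1d2) and ROR, which act on Arntl, and another through the PAR bZIP activators DBP, TEF and HLF and their competitor NFIL3, which bind D-boxes. The transcripts of these genes rise and fall over the day, each with a phase of its own.

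Promoter sequences are shown first because they hold the binding letters through which these genes are wired to one another. They are from RefSeq, build GRCm38.p6, on the strand of the gene, from 250 bases before to 50 bases after the annotated start. Sequences were present for 6 of the 8 genes, Per1 with a pair of starts; Per2 and Bhlhe40 are named only. Capitals mark the E-box CACGTG, the related E-prime box CACGTT and the D-box written as TTATGTAA or TTACGTAA, each searched on both strands. The cAMP response element TGACGTCA and the half-site AGGTCA of REV-ERB and ROR were searched as well, and no match overlapped another. The 4 sequences printed are those of the genes past the test (Per3, Cry2 and Ciart) and of Cry1, the close relative of Cry2 that did not pass.
Per3, chr4:151044616-151044915, minus strand: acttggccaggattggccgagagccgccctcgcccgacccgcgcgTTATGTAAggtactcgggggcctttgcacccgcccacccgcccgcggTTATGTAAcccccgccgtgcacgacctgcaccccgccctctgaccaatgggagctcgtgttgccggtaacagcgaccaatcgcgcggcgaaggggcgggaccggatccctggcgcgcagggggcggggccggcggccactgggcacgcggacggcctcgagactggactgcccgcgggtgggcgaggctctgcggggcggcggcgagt
Cry2, chr2:92434020-92434319, minus strand: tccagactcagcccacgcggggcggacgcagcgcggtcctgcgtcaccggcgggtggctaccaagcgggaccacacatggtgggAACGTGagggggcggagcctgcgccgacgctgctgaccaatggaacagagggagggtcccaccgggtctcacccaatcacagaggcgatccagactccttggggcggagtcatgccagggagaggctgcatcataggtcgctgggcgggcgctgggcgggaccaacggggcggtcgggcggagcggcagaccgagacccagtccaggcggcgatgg
Ciart, chr3:95882179-95882478, minus strand: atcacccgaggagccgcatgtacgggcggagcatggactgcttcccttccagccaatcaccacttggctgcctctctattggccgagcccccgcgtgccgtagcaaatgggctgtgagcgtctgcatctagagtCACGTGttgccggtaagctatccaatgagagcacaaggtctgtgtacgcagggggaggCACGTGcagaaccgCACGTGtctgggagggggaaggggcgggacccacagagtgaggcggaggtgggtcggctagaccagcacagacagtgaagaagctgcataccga
Cry1, chr10:85185005-85185304, minus strand: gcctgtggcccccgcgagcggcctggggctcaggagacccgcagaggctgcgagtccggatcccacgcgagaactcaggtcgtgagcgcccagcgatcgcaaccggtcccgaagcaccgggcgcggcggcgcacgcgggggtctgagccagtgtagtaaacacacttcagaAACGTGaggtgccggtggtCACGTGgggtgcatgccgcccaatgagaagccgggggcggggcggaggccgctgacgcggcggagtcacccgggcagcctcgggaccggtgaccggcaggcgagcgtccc

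The promoters differed in which letters they held. That of Per3 held TTATGTAA at 2 places, from −205 and from −158 (base 0 being the annotated start), and no E-box. At least 1 D-box, of either spelling searched, was found in 1.06% of all 32851 promoters in the table, and 2 or more in 0.0244%. That of Ciart held CACGTG at 3 places, from −116, −58 and −44. An E-box was found in 7.15% of all promoters and 3 or more in 0.0883%. The Cry1 promoter held 1 E-box from −60 and 1 E-prime box from −79, whereas that of Cry2 held 1 E-prime box from −166. E-prime boxes were found in 4.68% of promoters; on these strands they read AACGTG. The promoter of Bhlhe41 and the upstream promoter of Per1 each held 1 E-box, and the latter 1 half-site AGGTCA, found in 16.3% of promoters; the other promoter of Per1 held none of these letters. No promoter of the 6 genes held TGACGTCA, found in 1.79% of promoters. Letters in a window are a description of sequence and not evidence of binding.

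Libraries held 16778368 to 37133306 gene counts. Nppa and Nppb, the genes whose enhancer was deleted, had 246 to 4266 raw counts in wild-type and 1 to 16 in knockout libraries, so each library matched its label. Cardiomyocyte markers were high in all libraries, and the summed normalized counts of 3 atrial markers were 22.9 to 41.2 in wild-type and 30.1 to 90.8 in knockout. The sum of 5 fibroblast markers was 12313 to 13146 in wild-type and 13740 to 14078 in knockout libraries, without overlap. That of 4 mesothelial markers was 19.6 to 239 and 95.6 to 509, with overlap, and their part in the results was not tested. Sums of the cardiomyocyte, atrial, endothelial, smooth muscle and pericyte, macrophage, erythroid and skeletal muscle markers also overlapped between the groups. Of all single genes tested, 7.15% had groups apart in log2 CPM, in either direction. Mitochondrial rRNA took 6.4% and 6.19% of the counts of knockout replicates 2 and 4, and 8.51% to 10.5% of those of the other 6 libraries. No wild-type library lay in the lower range, so a value within that range alone could not be had. Over all genes, knockout replicates 1 and 3 differed little from each other (mean chi-square per gene 3.14), as did replicates 2 and 4 (3.54), whereas the other knockout pairs stood at 14.2 to 16.1 and wild-type pairs at 4.96 to 13. The repressors and their ratios are therefore given with and without knockout replicates 2 and 4, an alternative added after the data were seen. In tissue RNA, fewer cells of a type and less RNA per cell cannot be told apart.

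Of the 8 repressor genes, Cry2, Per3 and Ciart fell in the knockout ventricles, none rose and 5 did not pass the test. All 8 had a negative log2 fold change. The median was −0.71, against 0.00 over all genes tested, of which 8268 of 16551 were negative. By edgeR's quasi-likelihood test at an adjusted p of 0.05, 0.785% of all genes were called, and 0.508% were called lower. At an unadjusted p under 0.05, 5 of the 8 were lower, against 7.01% of all genes. The groups lay apart in log2 CPM for the same 3 genes, which 3.83% of all genes did with the knockout lower. With the robust form of the same test, which lets hypervariable genes keep a wider error and was added after the data were seen, only Cry2 was called, against 0.689% of all genes called lower and 0.375% called higher. Leaving out 1 library at a time gave 2 to 5 calls among the 8, the lowest when replicate 1 or 2 of the wild-type, or 2 or 4 of the knockout, was dropped and the highest when wild-type replicate 4 was. With a covariate for mitochondrial rRNA, or without knockout replicates 2 and 4, 0 of the 8 were called by edgeR, with 5 at an unadjusted p under 0.05 in each of these fits.

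**Figure D1:**
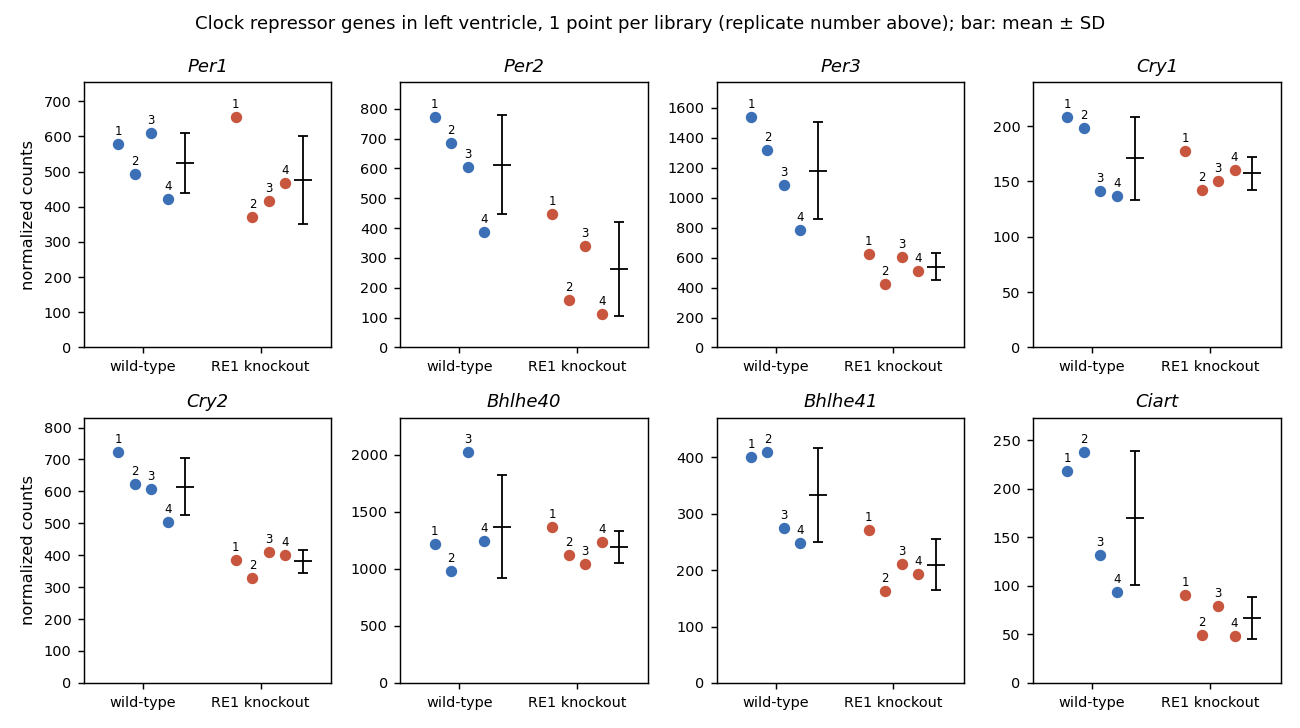
Normalized counts (vertical axis, from 0) of the 8 repressor genes in each library, with the replicate number above each point and the mean ± SD beside each group. The groups lie apart for Per3, Cry2 and Ciart and overlap for the other 5 genes, and wild-type replicate 4 is the lowest wild-type library in 7 of the 8 panels.

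The PER proteins are the rate-limiting part of the repressor complex and are encoded by Per1, Per2 and Per3, of which 1 passed the test. Per3 stood at 1540.0, 1316, 1086 and 784 normalized counts in wild-type replicates 1 to 4, while the 4 knockouts, in the same order, held 623, 424, 601 and 512. Every knockout library was below every wild-type library. Per3 was 2.23-fold lower (log2 fold change −1.15, SE 0.17, 95% interval −1.51 to −0.79, edgeR adjusted p = 0.00751). The robust test gave an adjusted p of 0.12 with an SE of 0.24, and the call held in all 8 fits without 1 library, with edgeR adjusted p of up to 0.0458. It ended with the mitochondrial rRNA covariate (−0.99, edgeR adjusted p = 0.0718) and without knockout replicates 2 and 4 (−0.96, edgeR adjusted p = 0.0908). Per3 lies on chromosome 4 (151003652 to 151044665, GRCm38, ENSMUSG00000028957), 3.02 Mb from the end of Nppb; whether that place bears on its level was not tested.

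Per2, the paralogue most needed for rhythm in mice, varied the most. Its normalized counts in wild-type replicates 1 to 4 were 773, 687, 605 and 385, and the knockout libraries had 446, 158, 339 and 111. Knockout replicate 1 lay above wild-type replicate 4, so the groups overlapped, and the knockout libraries themselves ranged over 4.01-fold. The log2 fold change of −1.31 (SE 0.31, 95% interval −1.97 to −0.64) did not pass (edgeR adjusted p = 0.0678). Per2 passed without wild-type replicate 4 (edgeR adjusted p = 0.0313) and without knockout replicate 1 (0.0366), and it was at −0.67 without knockout replicates 2 and 4, a value chosen after the data were seen.

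Per1, an early target of hormone signals, had 578, 493, 609 and 421 normalized counts in the 4 wild-type libraries. Knockout replicates 1 to 4 had 655, 369, 415 and 468. The highest and the lowest of the 8 libraries were both knockout. Its log2 fold change was −0.17 (SE 0.15, 95% interval −0.49 to 0.15, edgeR adjusted p = 0.671), and the sign turned with a covariate for mitochondrial rRNA (0.09) and was 0.00 without knockout replicates 2 and 4.

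The cryptochromes, the strongest repressors of CLOCK and BMAL1, also split. Wild-type replicates 1 to 4 held 722, 622, 607 and 505 normalized counts of Cry2, against 386, 330, 411 and 399 in the knockouts. The lowest wild-type library was above the highest knockout library. Cry2 was 1.62-fold lower (log2 fold change −0.70, SE 0.10, 95% interval −0.91 to −0.49, edgeR adjusted p = 0.00718, and 0.00606 by the robust test). The call held in all 8 fits without 1 library. It ended with the mitochondrial rRNA covariate (−0.62, edgeR adjusted p = 0.0718) and without knockout replicates 2 and 4 together (−0.62, edgeR adjusted p = 0.0696).

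For Cry1 the wild-type values were 208, 198, 141 and 136 normalized counts, and the knockout values were 177, 142, 150.3 and 160.1. The knockout libraries lay inside the wild-type range. Its log2 fold change was −0.16 (SE 0.14, 95% interval −0.45 to 0.14, edgeR adjusted p = 0.675), and it was −0.10 without knockout replicates 2 and 4. Of the 100-base stretches of Cry1 and Cry2 transcripts none occurred in another gene, so reads of this length could be told apart between them. On the opposite strand D930015M05Rik shares 4.67% of the exon bases of Cry2.

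The bHLH repressors differed from each other in level and in spread. Bhlhe41 (DEC2) had 400.4, 409, 275 and 248 normalized counts in the 4 wild-type libraries, and 270.4, 163, 211 and 193 were counted in the knockouts. Knockout replicate 1 alone reached into the wild-type range. Bhlhe41 had a log2 fold change of −0.72 (SE 0.17, 95% interval −1.09 to −0.36) and did not pass (edgeR adjusted p = 0.0644). It passed without wild-type replicate 3 (edgeR adjusted p = 0.0434) or 4 (0.0181), and was at −0.51 without knockout replicates 2 and 4. Bhlhe40 (DEC1), which is also induced by low oxygen and by stress, had wild-type values of 1219, 980.1, 2019.9 and 1246 and knockout values of 1367, 1123, 1037 and 1232. Wild-type replicate 3 was the highest library, and all others lay between 980.1 and 1367. The log2 fold change of Bhlhe40 was −0.20 (SE 0.16, 95% interval −0.54 to 0.15, edgeR adjusted p = 0.65), turning to 0.04 without wild-type replicate 3 and to 0.03 with the mitochondrial rRNA covariate; it was −0.18 without knockout replicates 2 and 4. On the opposite strand Gm43909 covers 19.0% of the exon bases of Bhlhe41 and 0610040F04Rik 2.51% of those of Bhlhe40, and no source used here gives the strand setting of the counts.

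Ciart, a repressor without close relatives, had the largest fall of the 3 genes called. The wild-type libraries held 218, 237, 132 and 93.1 normalized counts of it and the knockouts 90.1, 49.5, 79.3 and 47.8. The groups did not overlap, but wild-type replicate 4 and knockout replicate 1 were 93.1 and 90.1. Ciart was 2.70-fold lower (log2 fold change −1.43, SE 0.28, 95% interval −2.03 to −0.84, edgeR adjusted p = 0.0316). The robust test gave an adjusted p of 0.166, and the call ended in 4 of the 8 fits without 1 library, each lacking a high wild-type library (replicate 1 or 2) or a low knockout one (replicate 2 or 4; edgeR adjusted p 0.0618 to 0.128). It ended too with the mitochondrial rRNA covariate (−1.27, edgeR adjusted p = 0.181) and without knockout replicates 2 and 4 (−1.05, edgeR adjusted p = 0.255), and in limma on the deposited normalized counts (−1.29, limma adjusted p = 0.052), which called 2 of the 8. Of its 100-base stretches, 3.95% also occur in another gene.

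**Figure D2:**
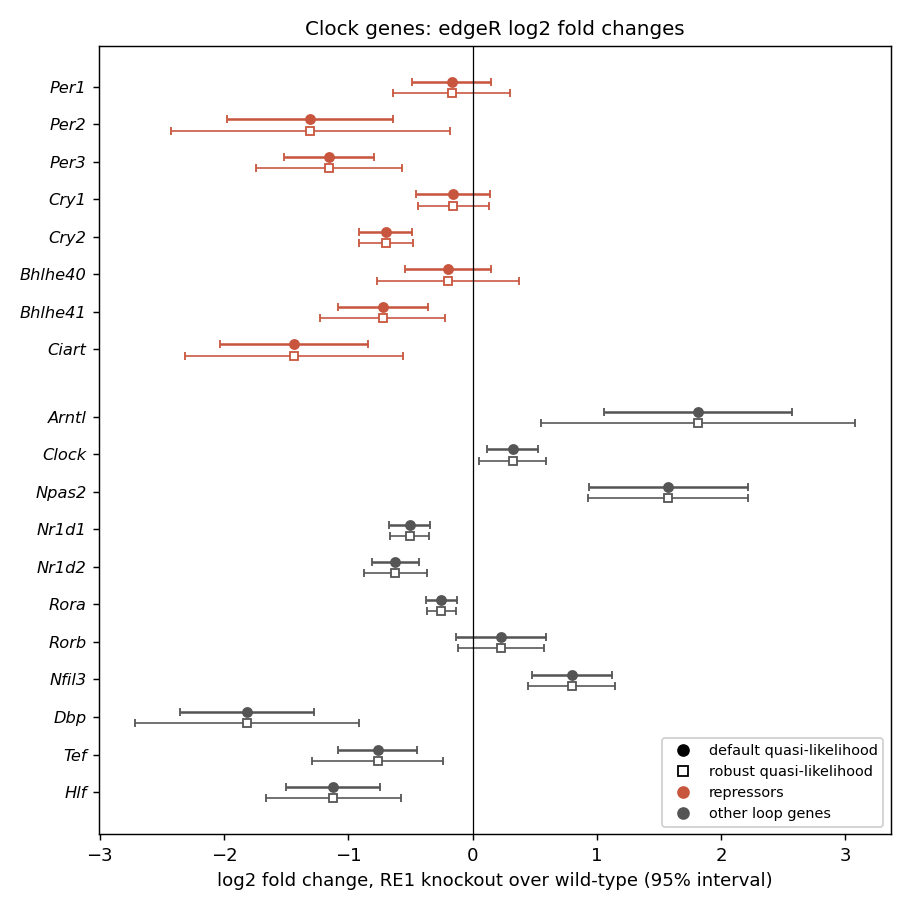
Log2 fold change, knockout over wild-type (horizontal axis), of the 8 repressors and of other loop genes, with 95% intervals from the default (filled circles) and robust (open squares) edgeR tests. Intervals of Per2, Per3 and Ciart widen under the robust test while that of Cry2 stays at −0.92 to −0.48, and the intervals of Per1, Cry1 and Bhlhe40 include 0.

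The authors' deposited table, with its sign turned to knockout over wild-type, listed 4 of the 8 below an adjusted p of 0.05, all lower: Cry2 at −0.69 (1.25e-07), Per3 at −1.13 (4.34e-05), Bhlhe41 at −0.69 (0.00408) and Ciart at −1.37 (0.00562). Over all genes with an adjusted p in the authors' deposited table, 1.09% were called lower. Per2 was at −1.22 with an adjusted p of 0.105 in the authors' deposited table. DESeq2, run anew on the raw counts, also called these 4, against 1.1% of all genes called lower and 1.77% in either direction, and limma-voom called Per2 in place of Bhlhe41.

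Ratios taken inside each library set the relatives against each other and do not depend on how libraries are scaled. The log2 ratio of Cry1 to Cry2 was −1.85 ± 0.19 in wild-type and −1.27 ± 0.14 in knockout libraries (SD, n = 4 each), and the groups did not overlap. The difference of 0.58 had p = 0.0286 by a two-sided exact permutation test, the smallest the 70 assignments of 8 libraries can give, and p = 0.0476 adjusted over the 5 ratios compared. Relative to Cry2, Cry1 RNA was 1.5-fold higher in the knockout. The ratio comes from the same counts as the log2 fold changes of Cry1 (−0.16) and Cry2 (−0.70), so it is not separate from them.

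Within the Per genes, Per1 stood apart from the other two. The log2 ratio of Per1 to Per2 took wild-type values of −0.42, −0.48, 0.01 and 0.13 and knockout values of 0.55, 1.22, 0.29 and 2.06, and every knockout value was above every wild-type value. The log2 ratio of Per1 to Per3 was −1.14 ± 0.32 in wild-type and −0.20 ± 0.25 in knockout libraries (SD, n = 4 each), also apart. Both differences, 1.22 and 0.94, had an exact permutation p of 0.0286, adjusted to 0.0476. They share Per1, so they are not separate results. The adjusted p of each called ratio, Cry1 to Cry2 included, passes only because all 3 stood at the smallest p possible. Without any 1 wild-type library, the 3 ratios whose groups lay apart kept their direction but had adjusted exact permutation p of 0.0714 to 0.0952. Their groups still lay apart, and adjusting over 5 ratios makes the adjusted p of each ratio depend on the others. Without wild-type replicate 1, 2 or 4, it was 0.0714 for Cry1 to Cry2 and Per1 to Per3, and 0.0952 for Per1 to Per2. Without any 1 knockout library, the adjusted exact permutation p of all 3 ratios was 0.0476. With knockout replicates 2 and 4 left out, the difference was 0.57 for Cry1 to Cry2, 0.61 for Per1 to Per2 and 0.91 for Per1 to Per3, and both remaining knockout values stayed above all wild-type values for each. Those 6 libraries allow no exact permutation p below 0.0667, so the calls could not be made there. The log2 ratio of Per3 to Per2 was 0.95 ± 0.08 in wild-type and 1.23 ± 0.75 in knockout libraries (SD, n = 4 each; difference 0.28, exact permutation p = 0.629). Its spread was wide in the knockout, from 0.48 in replicate 1 to 2.19 in replicate 4. Without knockout replicates 2 and 4 the difference turned to −0.30, and both remaining knockout values, 0.48 and 0.82, lay below all wild-type values. The lowest wild-type value was 0.84, and the exact permutation p was 0.0667. The log2 ratio of Bhlhe40 to Bhlhe41 was 2.01 ± 0.72 in wild-type and 2.52 ± 0.24 in knockout libraries (SD, n = 4 each). These groups overlapped, with a difference of 0.50 and an exact permutation p of 0.314.

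**Figure D3:**
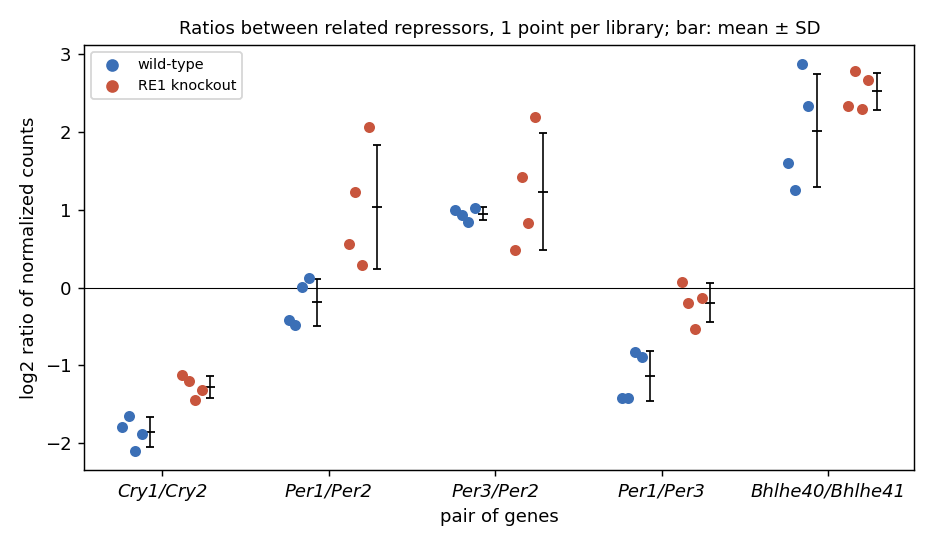
Log2 ratio of normalized counts between 5 pairs of related repressors (vertical axis), with 1 point per library and the mean ± SD beside each group. Wild-type and knockout points lie apart for Cry1 to Cry2, Per1 to Per2 and Per1 to Per3, and overlap for the other two pairs.

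Levels between genes were compared per length, as normalized counts per kilobase of exon. In wild-type ventricles Bhlhe40 was the most abundant repressor RNA at 290 ± 96.0 per kilobase (SD, n = 4). It was followed by Per3 at 123 ± 33.7, Per2 at 105 ± 28.4, Cry2 at 97.1 ± 14.1 and Per1 at 93.3 ± 15.1, whose ranges of mean ± SD overlapped. Inside each wild-type library, however, Per3 was above Per2, Cry2 and Per1, by little in replicate 4 (81.6 against 79.8 for Cry2). Ciart at 75.2 ± 30.5 overlapped these genes. Cry1 at 51.2 ± 11.2 and Bhlhe41 at 49.6 ± 12.4 were lowest and alike within their spread. In knockout ventricles Bhlhe40 was again first at 253 ± 30.2 per kilobase and Per1 second at 84.7 ± 22.3. Cry2 (60.4 ± 5.71), Per3 (56.2 ± 9.48), Cry1 (47.1 ± 4.47) and Per2 (45 ± 26.7) followed, and Bhlhe41 (31.2 ± 6.73) and Ciart (29.5 ± 9.42) were lowest. The means of Per2 and Per3 were above that of Per1 in wild-type ventricles, within the SD between libraries, and below it in knockout ventricles. Inside each wild-type library Per3 was above Per1, whereas Per2 was below Per1 in replicates 3 and 4.

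The repressors varied between libraries of the same group more than most genes did. The within-group SD of log2 CPM was 0.72 for Per2, 0.55 for Ciart, 0.35 for Per3, 0.34 for Bhlhe41, 0.33 for Bhlhe40, 0.30 for Per1, 0.24 for Cry1 and 0.18 for Cry2, against a median of 0.14 over all genes tested. Per2 had a larger spread than 99.3% of all genes, Ciart than 96.8% and Cry2 than 62.2%. Wild-type replicate 4 was the lowest wild-type library for 7 of the 8 genes, all but Bhlhe40. Among knockout libraries, replicate 1 was the highest for 7 genes, all but Cry2, and replicate 2 the lowest for 5.

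**Figure D4:**
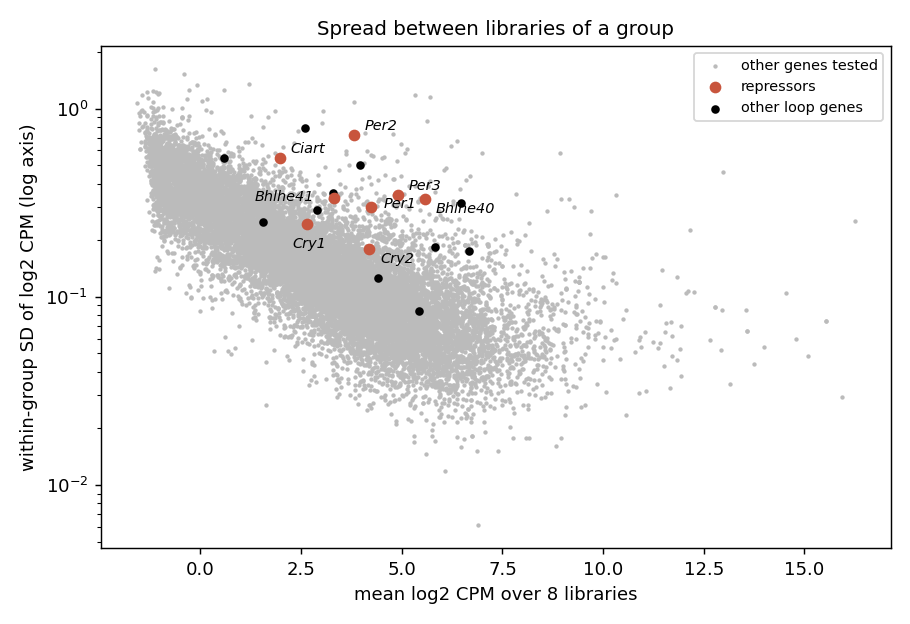
Within-group SD of log2 CPM (vertical log axis) against mean log2 CPM over 8 libraries (horizontal axis) for all genes tested, with the 8 repressors in red and other loop genes in black. Per2 and Ciart lie at the upper edge of the cloud at their level, with SDs of 0.72 and 0.55, and Cry2 is the lowest of the 8 at 0.18.

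The other genes of the loop, taken from a list of 13 of which 12 were tested, changed in both directions: 3 rose and 5 fell by edgeR, against 0.278% and 0.508% of all genes. The median log2 fold change over the 12 was −0.01. Of the activators, Arntl had wild-type values of 38.9, 47.1, 95.8 and 204 normalized counts and knockout values of 280.1, 402, 234 and 368. The wild-type library nearest the knockout was again replicate 4. Arntl rose 3.51-fold (SE 0.35 on the log2 scale, with adjusted p of 0.0328 by default edgeR and 0.231 by the robust test). DESeq2 did not call Arntl, nor did edgeR without wild-type replicate 1 or 2, or without knockout replicate 1, 2 or 4. Npas2 rose 2.98-fold (edgeR adjusted p = 0.0295; 0.0246 by the robust test). For Clock the log2 difference was 0.32 (SE 0.10, adjusted p = 0.143 by edgeR), with wild-type replicate 4 at 1674 normalized counts, inside the knockout range of 1579 to 1790.

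Among the nuclear receptors, Nr1d1 and Nr1d2 fell 1.42-fold and 1.54-fold (edgeR adjusted p 0.0102 and 0.00718), by both forms of the test. Rora was at −0.25 (SE 0.06, edgeR adjusted p = 0.0596) and passed by the robust test at 0.0386. Rorb was at 0.23 (SE 0.17, edgeR adjusted p = 0.603). Nfil3 rose 1.74-fold, and its D-box competitors Dbp, Tef and Hlf fell 3.52-fold, 1.70-fold and 2.18-fold (edgeR adjusted p 0.0295, 0.00681, 0.0333 and 0.011). By the robust test the adjusted p of Dbp, Tef and Hlf were 0.11, 0.229 and 0.0884. Calls ranged from 2 without knockout replicate 2 to 10 without wild-type replicate 3 or 4, and only Dbp passed with the mitochondrial rRNA covariate. No loop gene was called higher without wild-type replicate 1 or 2, or without knockout replicate 2 or 4. Without knockout replicates 2 and 4, when Arntl2 was tested as well, 0 of the 13 passed by edgeR and 10 had an unadjusted p under 0.05; Dbp was then at −1.56 and Arntl at 1.46. Thra and Sphk2 overlap Nr1d1 and Dbp on the opposite strand over 8.55% and 18% of their exon bases.

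**Figure D5:**
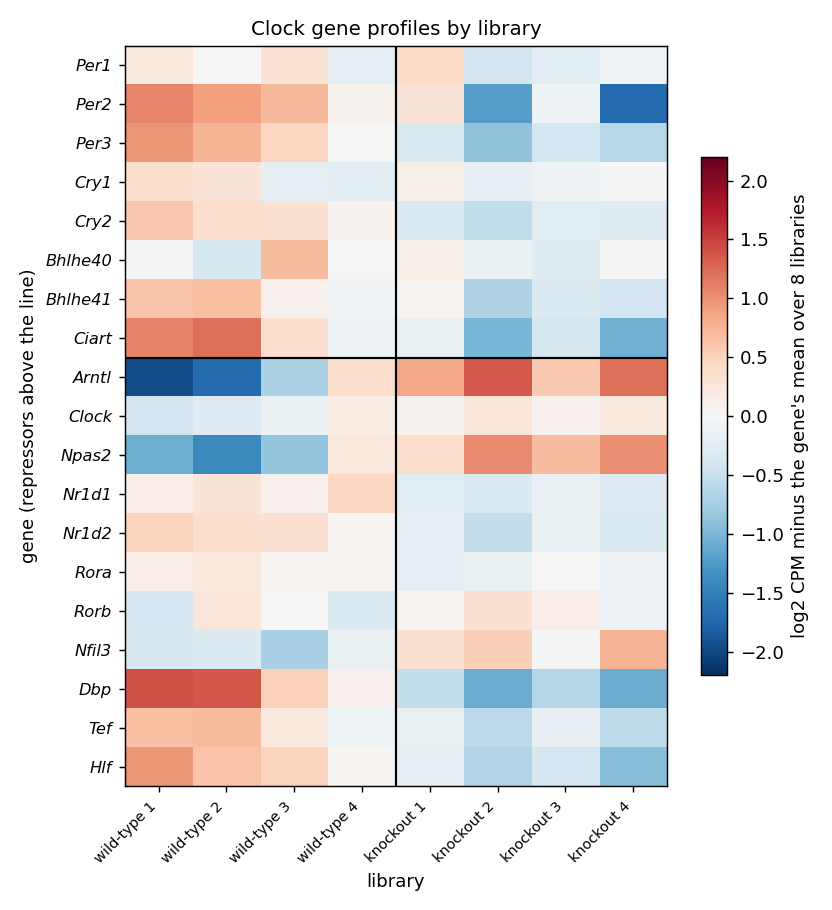
Log2 CPM of the 8 repressors (above the line) and other loop genes in each library, as the difference from the gene's mean over 8 libraries (colour scale). Wild-type replicates 1 to 3 are high for Per2, Per3, Cry2, Ciart and Dbp and low for Arntl and Npas2, the knockout libraries are low for Per3, Cry2, Ciart and Dbp and high for Arntl and Npas2, and wild-type replicate 4 is the wild-type library nearest to the knockouts for each of these genes.

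The genes with profiles closest to each repressor were found by the root mean square difference between log2 CPM profiles over the 8 libraries, each centred on its own mean. For Cry2 they were Nr1d2 (0.06) and the transcription factor gene Hic1 (0.07), and for Per3 they were Hlf (0.16) and Gm14864 (0.20). For Ciart they were the folate-cycle enzyme gene Mthfd1l (0.20) and Dbp (0.23), and for Bhlhe41 Tef (0.12) and the glycolytic regulator gene Pfkfb3 (0.14). Loop genes from the list were among the closest pair for these 4 repressors. The distance takes in the difference between the groups, so this likeness is not separate from the fold changes. For Per2 the closest were the 5.8S rRNA gene n-R5-8s1 (0.30) and Mthfd1l (0.36). For the other 3 they were Stmn2 (0.07) and Cxcl14 (0.11) for Per1, Rabl3 (0.08) and the cold-induced gene Cirbp (0.09) for Cry1, and Pfkfb2 (0.08) and Myh13 (0.08) for Bhlhe40.

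Of 31 listed kinases, phosphatases, ubiquitin ligases and partners that modify PER and CRY proteins, 30 were tested. By edgeR 0 were called, against 0.785% of all genes, and 1 had an unadjusted p under 0.05, against 2176 of all 16551 genes; DESeq2 also called 0. A count of 0 among 30 is near that background and says nothing particular of the modifiers. The median log2 fold change of the 30 was 0.00. The one gene was Usp2, a deubiquitinase, with a mean of 1599 ± 261 normalized counts in wild-type and of 1176 ± 166 in knockout libraries (SD, n = 4 each). Its log2 difference was −0.46 (SE 0.11, adjusted p = 0.0723 by edgeR). It passed without wild-type replicate 3 or 4. The next by p-value were the ubiquitin ligase gene Ube3a (0.08, SE 0.05), the histone deacetylase gene Hdac1 (−0.15, SE 0.09) and the kinase gene Gsk3b (−0.07, SE 0.05), with edgeR adjusted p of at least 0.468.

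Genes that respond to glucocorticoid, cAMP, heat or low oxygen, cues to which Per1, Per2 and Bhlhe40 also respond, were mixed. Of 22 tested, 3 rose and 0 fell by edgeR, against 0.278% and 0.508% of all genes. The 3 were Ddit4, an inhibitor of mTORC1, higher by 2.31-fold, the kinase gene Sgk1 by 1.43-fold and the transcription factor gene Cebpd by 1.59-fold (edgeR adjusted p 0.00681, 0.0166 and 0.0211). The median log2 fold change over the 22 was 0.16. Fos, next by p-value, averaged 61.1 ± 31.6 wild-type and 204 ± 172 knockout normalized counts (SD, n = 4 each), with an adjusted p of 0.103 by edgeR. Ddit4 alone passed when wild-type replicate 1, knockout replicate 2 or both knockout replicates 2 and 4 were left out. With the mitochondrial rRNA covariate the calls of Sgk1 and Cebpd ended, and Ddit4 and Tsc22d3, a glucocorticoid-induced gene named after its values were seen, were called by edgeR.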

How the data were processed

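Total RNA of left ventricles was made into stranded libraries from 900 ng and read as paired ends of 125 bases, per the labels' protocols. The submitters' processing notes list STAR, DESeq2 and build mm10 without versions; the counting program, strand setting and annotation release were left unstated. The deposited raw counts are whole numbers per gene ID. The deposited normalized counts are a linear signal, raw counts divided by 1 factor per library, as the values show. The deposited comparison gives the authors' log2 fold changes, wild-type over knockout, and the authors' p-values; their sign was turned here.

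Raw counts were tested with edgeR 4.0.16 in R 4.3.3 (TMM, filterByExpr, default quasi-likelihood test, Benjamini-Hochberg over 16551 genes, threshold 0.05). The procedure was first tested on simulated data, where 17 of 183 calls were false, a larger share than the threshold aims at. It recovered 46% of the genes changed 1.25-fold and 100% of those changed 2-fold. Simulated libraries were drawn independently, without the likeness of knockout replicates 1 and 3, or 2 and 4, so these shares need not hold for the real libraries. Alternatives used DESeq2 1.42.0, limma 3.58.1, other filters and scalings, a covariate for mitochondrial rRNA, and left-out libraries; the robust test was added after the data were seen. Ratios used normalized counts with a pseudocount of 1. Of 41128 gene IDs, 40254 took the symbol of the GENCODE M21 annotation, 137 that of the file, and 737 had none.

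The members and lists were chosen with earlier results of these data known. Named genes were all members, all tested loop genes (1 of them, kept in the counts, is not reported here), in the other lists those past the threshold or, if fewer than 4, the smallest p-values up to 4, and for each member the 2 other genes with the nearest profile. Same-numbered libraries of the groups did not deviate together (correlations −0.01, 0.02, −0.08 and −0.06), so the numbers were not taken as pairs. Libraries held 16778368 to 37133306 counts, and the members 46 to 2019 raw counts per library.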

Additional observations from a re-analysis of the deposited data

How the results depend on the processing

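Over all genes, 130 were called, against 546 with no low-count filter, 287 by DESeq2, 62 with the mitochondrial rRNA covariate, 338 at an adjusted p of 0.1, 24 without knockout replicates 2 and 4, and 21 to 241 without 1 library. Of the 8 repressors, 3 were called, against 5 with no filter, 5 at 0.1, 1 by the robust test, 0 with the covariate, 0 without knockout replicates 2 and 4, and 2 to 5 without 1 library. Of the other loop genes 8 were called, against 1 with the covariate, 0 without those replicates and 2 to 10 without 1 library; of the modifiers 0, against 1 with no filter, 1 at 0.1 and 0 to 1 without 1 library; of the inducers 3, against 7 with no filter, 1 without those replicates and 1 to 4 without 1 library. Signs turned for Per1 (0.0889 with the covariate, 0.00283 without those replicates), for Bhlhe40 (0.0254 with the covariate; −0.33 to 0.0429 without 1 library) and for Per3 to Per2 (−0.0397 to 0.53 without 1 library); the cause was not tested. Without 1 library the log2 ratio difference was 0.50 to 0.65 for Cry1 to Cry2, 0.88 to 1.47 for Per1 to Per2 and 0.85 to 1.05 for Per1 to Per3. Without knockout replicates 2 and 4 it was 0.57, 0.61 and 0.91, past no threshold with 6 libraries, and −0.30 for Per3 to Per2.

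With the replicate number as a block, edgeR called 146 genes and 4 of the 8 repressors, Per2 being added. The samples share only a number. By sign flips within these pairs the 3 ratio differences were the same, 0.58, 1.22 and 0.94, but 4 pairs cannot give p below 0.125.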
